A study of Mus musculus with 6 samples.

Results

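The BCL2 family genes described here are 10 of the 54648 gene symbols in the count table, taken by symbol from a given list of genes that hold back or drive mitochondrial cell death. They comprise 5 survival genes (Bcl2, Bcl2l1, Mcl1, Bcl2a1b and Bcl2a1d), the 2 pore-forming effectors Bax and Bak1, and 3 BH3-only genes (Bcl2l11, Bbc3 and Pmaip1). On GRCm38, Bcl2 spans chr1:106538178-106714274, Bcl2l1 chr2:152780668-152831728, Bcl2l11 chr2:128126038-128162547, Mcl1 chr3:95658788-95663176, Bbc3 chr7:16308393-16318205, Bax chr7:45461697-45466898, Bcl2a1d chr9:88723285-88731914, Bcl2a1b chr9:89199209-89207827 and Bak1 chr17:27019810-27029009. The survival proteins sit on the mitochondrial outer membrane and hold the effectors in check, the BH3-only proteins bind the survival proteins and free or activate the effectors, and active BAX and BAK open the membrane, release cytochrome c and start the caspase cascade. MCL1 and the inducible A1 proteins have been linked to the survival of macrophages during inflammation. The transcription factor FOXO3 is known to activate Bcl2l11, which encodes BIM, and Bbc3, which encodes PUMA, in several cell types, and it binds DNA at the forkhead motif GTAAACA.

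Peritoneal macrophages of C57BL/6 mice aged 6 to 8 weeks were compared by RNA-seq between WT littermates (n = 3 libraries) and FOXO3 KO mice (n = 3 libraries), a knockout for which no restriction to a cell type is described. All mice were on standard chow and had received an intraperitoneal injection of thioglycollate, an irritant that draws macrophages into the peritoneal cavity, and the harvested cells were not sorted. Libraries of total RNA were read as 76 bp paired ends and held between 28083572 and 36424331 estimated counts. The unit is CPM, read counts relative to a TMM-scaled library size, and each library goes by its label.

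A pair of libraries stood apart from their labels or from the rest. Foxo3 was at 117, 107 and 73.1 CPM in WT 1 to 3, at 4.71 and 4.29 CPM in FOXO3 KO 1 and 3, and at 104 CPM in the library labelled FOXO3 KO 2, which held the gene at the WT level. The Foxo3 log2 fold change (FOXO3 KO over WT) was -1.40 (SE 1.22) over all 6 libraries and -4.46 (SE 0.29) without FOXO3 KO 2. WT 3 held 5638 CPM of 8 B cell markers against 295 to 1403 CPM in the other libraries, and 831 CPM of mast cell markers against 107 to 305 CPM. It also carried both Xist (871 CPM) and Y-linked transcripts (55.7 CPM summed), whereas the others carried mainly one or the other. The 12 macrophage markers, of which Lyz2 leads the sum, added up to between 15120 and 20144 CPM in every library, WT 3 being the lowest. The single markers went both ways in WT 3, which was the lowest library for 8 of the 12 and the highest for 4. Each member's result is therefore given over all 6 libraries as labelled, without FOXO3 KO 2, and without WT 3. Since the cells were not sorted, fewer cells of one type and a lower amount of its RNA in each cell cannot be told apart in these values.

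Bcl2l11 and Bbc3, named above as known FOXO3 targets, each have a promoter window with the forkhead motif, and these windows are shown for that reason. The motif GTAAACA, searched on both strands (reverse complement TGTTTAC), was found in 2 of 14 promoter windows of 9 of the 10 genes, where a window runs from 250 bases before to 50 bases after a RefSeq transcript start (GRCm38.p6). Of all 32851 such windows, 1199 (3.65%) hold it. In Bcl2l11 the motif lies on the gene's strand and begins 227 bases upstream of the start, and the printed bases are chr2:128125788-128126037 on the plus strand. In Bbc3 it lies on the opposite strand 167 bases upstream of 1 of 3 starts, in chr7:16310011-16310260, also printed from the plus strand. The other windows of these genes do not hold these letters. Capitals mark the motif, 5′ to 3′.
Bcl2l11: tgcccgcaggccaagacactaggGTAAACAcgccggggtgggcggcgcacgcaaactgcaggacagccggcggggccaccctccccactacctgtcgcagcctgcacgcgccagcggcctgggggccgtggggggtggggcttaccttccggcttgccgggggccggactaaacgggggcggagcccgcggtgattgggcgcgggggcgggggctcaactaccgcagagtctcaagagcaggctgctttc
Bbc3: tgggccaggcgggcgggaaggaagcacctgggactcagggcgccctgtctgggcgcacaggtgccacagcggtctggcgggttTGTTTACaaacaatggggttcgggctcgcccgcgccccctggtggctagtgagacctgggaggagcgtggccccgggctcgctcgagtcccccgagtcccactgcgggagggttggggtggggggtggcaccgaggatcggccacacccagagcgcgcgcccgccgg

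The A1 genes have their sequences shown for a different reason, which is that the copies share most of their coding sequence. Bcl2a1b, Bcl2a1d and Bcl2a1a lie on chromosome 9 and each has a coding sequence of 519 bases (GENCODE M21). Bcl2a1b and Bcl2a1d differ at 6 of those bases (98.8% identical), and over the 3 copies 12 positions vary, of which 6 fall in the first 75 coding bases printed here. Capitals mark the positions that are not the same in all 3 copies.
Bcl2a1a: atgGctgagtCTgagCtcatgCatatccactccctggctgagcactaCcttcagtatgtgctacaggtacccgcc
Bcl2a1b: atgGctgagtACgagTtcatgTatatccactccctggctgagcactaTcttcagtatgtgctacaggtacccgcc
Bcl2a1d: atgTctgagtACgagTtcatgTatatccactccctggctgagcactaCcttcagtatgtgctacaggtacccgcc

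Over the whole family, no gene met the threshold for a differentially expressed gene between FOXO3 KO and WT macrophages. By the quasi-likelihood test of edgeR, at an FDR under 0.05 over all genes tested and a fold above 1.5, 0 of the 10 genes were called over all 6 libraries, 0 without FOXO3 KO 2 and 0 without WT 3. The same test called 0% of all 15608 genes over all 6 libraries, 0% of 16217 without FOXO3 KO 2 and 0% of 15788 without WT 3, so a count of 0 among the family members is at the background. Foxo3, the gene knocked out, was itself not called in these fits (adjusted p = 0.859, 0.105 and 0.833 in the same order, edgeR). A count of 0 of 10 therefore does not show that the family was unchanged. At an unadjusted p under 0.05 the counts were 0 of 10 over all 6 libraries (5.68% of all genes), 0 of 10 without FOXO3 KO 2 (4.30%) and 1 of 10, Bbc3, without WT 3 (8.41%). DESeq2, the likelihood ratio test of edgeR and limma-voom called 0 of the 10 as well. Over all genes they called 160 of 31439, 109 of 15608 and 0 of 15608. The 31439 are all genes with a count, and DESeq2 gave some of them no adjusted p, Foxo3 among them. With so few calls over all genes, 0 of 10 is again at the background. In no family member were the 3 FOXO3 KO libraries all above or all below the 3 WT libraries, a separation seen in 12.4% of all genes tested.

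For each of the 10 genes WT 3 lay at one end of the range. It was the lowest of the 6 libraries for 9 of the 10 genes, against 37.5% of all genes tested, and the highest for the remaining one, Bcl2, against 37.2%. Among the other 5 libraries the highest value of a gene was between 1.15 and 1.70 times the lowest. The median log2 fold change of the 10 genes was 0.19 over all 6 libraries, with 8 of 10 higher in FOXO3 KO, and 0.04 without WT 3, with 5 of 10 higher. The median over all genes tested was -0.01 and 0.00 in the same fits.

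**Figure D1:**
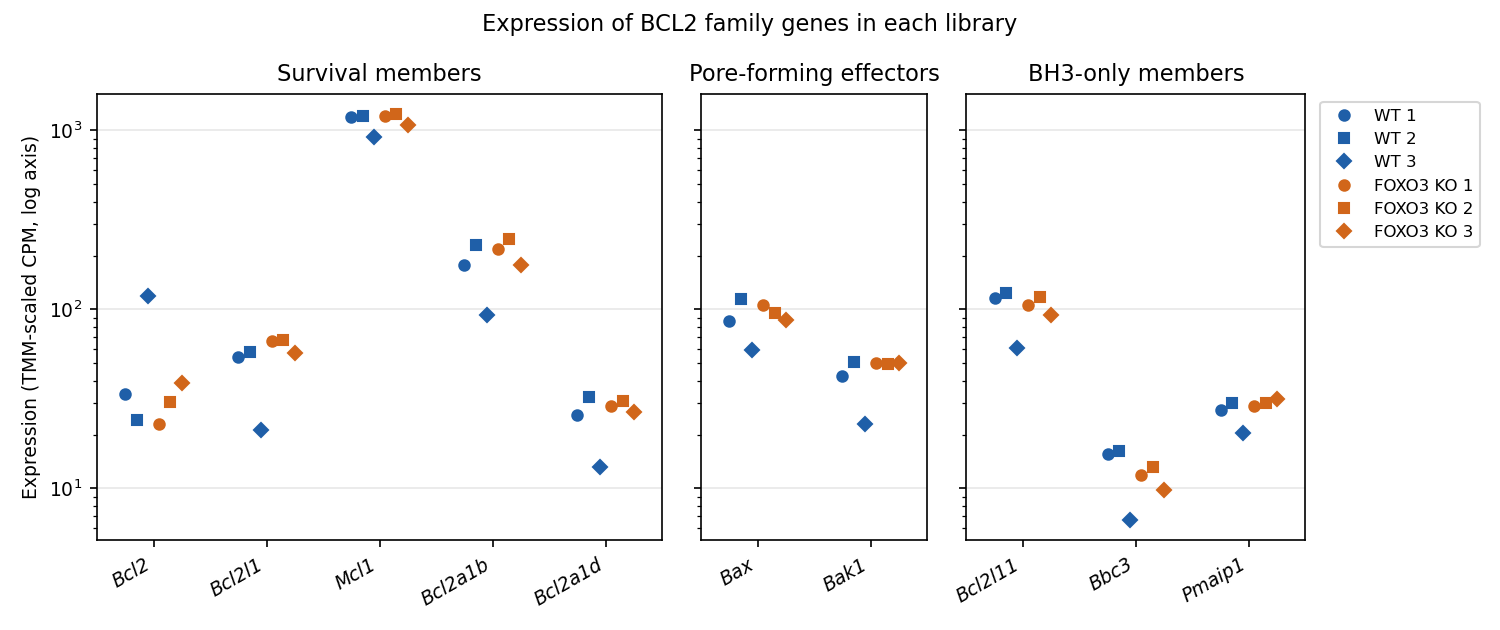
Expression of the 10 BCL2 family genes in each library (TMM-scaled CPM, log axis), by role, with WT libraries in blue and FOXO3 KO libraries in orange and 1 point per library. WT 3 (blue diamond) is the lowest point for 9 genes and the highest for Bcl2, where it stands at 120 CPM against 22.9 to 38.9 CPM in the other libraries.

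Mcl1, the short-lived survival factor on which many myeloid cells depend, had the highest level of the 10 genes, also per length of exons. It stood at 1189, 1198 and 914 CPM in WT 1 to 3 and at 1200, 1238 and 1070 CPM in FOXO3 KO 1 to 3. The ranges of the groups overlapped, and apart from WT 3 the highest library was at 1.16 times the lowest. FOXO3 KO over WT, the log2 fold change was 0.09 (SE 0.18, 95% interval -0.36 to 0.53, adjusted p = 0.920, edgeR), 0.05 without FOXO3 KO 2 and -0.02 without WT 3. With the interval running from 0.781-fold to 1.45-fold over all 6 libraries and from 0.818-fold to 1.19-fold without WT 3, a doubling or halving of Mcl1 lay outside both.

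The A1 gene Bcl2a1b, an NF-κB-inducible survival gene, was at 177, 230 and 92.7 CPM in the WT libraries and at 216, 248 and 177 CPM in the FOXO3 KO libraries. Its near-copy Bcl2a1d was at 25.8, 32.3 and 13.1 CPM in WT and at 28.8, 30.8 and 26.9 CPM in FOXO3 KO. In both copies WT 3 was the low library and the other libraries of the groups overlapped. Bcl2a1b and Bcl2a1d had log2 fold changes of 0.36 (SE 0.33, adjusted p = 0.863, edgeR) and 0.28 (SE 0.31, adjusted p = 0.877, edgeR), which were 0.24 and 0.23 without FOXO3 KO 2 and 0.08 and -0.00 without WT 3.

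Read sharing bears directly on these copies. Of the distinct 31-base words in the exons of Bcl2a1b, 88.8% also occur in another gene, and 570 of its 787 words occur in Bcl2a1d, while for Bcl2a1d the share is 89.1%. The estimated counts of both copies deviated from whole numbers in all 6 libraries, as estimated counts do where reads are divided between transcripts or genes. Bcl2a1b took between 82.8% and 86.6% of the counts of the A1 copies, Bcl2a1d between 10.7% and 12.6%, and Bcl2a1a, which is no member of the list, between 2.24% and 4.67%, and Bcl2a1c had a single count in FOXO3 KO 1 and 0 elsewhere. Gm29094, which is not among the copies summed here, shares 372 words with Bcl2a1b and 250 with Bcl2a1d. Summed over the copies Bcl2a1a to Bcl2a1d, which removes the division among them but not that with Gm29094, A1 stood at 207, 270 and 109 CPM in WT and at 253, 286 and 214 CPM in FOXO3 KO. For the sum, the log2 fold change was 0.36 (SE 0.33, 95% interval -0.43 to 1.16, adjusted p = 0.860, edgeR), 0.26 without FOXO3 KO 2 and 0.09 without WT 3. Bcl2a1a alone was at 4.65, 7.16 and 3.22 CPM in WT and at 8.29, 7.59 and 9.98 CPM in FOXO3 KO, without overlap of the groups (log2 fold change 0.78, SE 0.32, unadjusted p = 0.0477, adjusted p = 0.839, edgeR), and that value depends on how reads common to the copies were divided. The neutrophil markers, from cells in which A1 genes are also active, summed to 217, 225 and 137 CPM in WT and to 503, 231 and 426 CPM in FOXO3 KO. Most of that difference lay in S100a8 and S100a9. Csf3r, the largest single marker in each WT library, was at 137, 139 and 116 CPM in WT and at 159, 139 and 164 CPM in FOXO3 KO. Ly6g, Camp, Elane and Mpo were at 0.168 CPM or less in every library. S100a9 was at 0.471, 5.61 and 0.252 CPM in WT and at 164, 6.93 and 117 CPM in FOXO3 KO. Cxcr2 was also higher in FOXO3 KO, at 0.886, 0.882 and 0.587 CPM in WT and at 18.7, 2.23 and 14.4 CPM in FOXO3 KO. For Mmp8, Mmp9 and Retnlg the values of WT 1 and WT 2 overlapped those of FOXO3 KO. The part of neutrophils in the A1 values was not tested.

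Bcl2l1, which encodes BCL-XL, had the largest positive log2 fold change of the 10 over all 6 libraries. It was at 54.3, 57.4 and 21.2 CPM in WT and at 66.6, 67.7 and 57.1 CPM in FOXO3 KO. WT 3 was at 0.350 times the mean of the other 5 libraries, and WT 2 lay just above FOXO3 KO 3, so the groups overlapped. The log2 fold change was 0.53 (SE 0.36, 95% interval -0.35 to 1.41, adjusted p = 0.844, edgeR; exact two-sided permutation p = 0.2, the smallest possible with 3 against 3 libraries being 0.1). Without WT 3 it was 0.20 (SE 0.10, unadjusted p = 0.0882, adjusted p = 0.662, edgeR), and without FOXO3 KO 2 it was 0.48. With the split of the libraries by Xist as a covariate (WT 3 and FOXO3 KO 3 against the rest) it was 0.64 (unadjusted p = 0.0376, adjusted p = 0.473, edgeR). In the fit with this covariate 1606 of 15608 genes and 1 of the 10 members had an unadjusted p under 0.05. Bcl2l1 shares next to no sequence with other genes (1 of 4665 words), so its counts are little affected by read division.

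Bcl2, the founding survival gene of the family and one that is strong in lymphocytes, went the other way from the rest in WT 3. It stood at 33.7, 24.1 and 120 CPM in WT and at 22.9, 30.2 and 38.9 CPM in FOXO3 KO. WT 3 was at 3.99 times the mean of the other 5 libraries, and the mean was 59.1 ± 52.6 CPM in WT (SD, n = 3) and 30.7 ± 8.02 CPM in FOXO3 KO (SD, n = 3). The log2 fold change was -0.94 (SE 0.62, 95% interval -2.44 to 0.55, adjusted p = 0.843, edgeR) over all 6 libraries, -0.93 (SE 0.77) without FOXO3 KO 2, and 0.10 (SE 0.25, 95% interval -0.50 to 0.69, adjusted p = 0.956, edgeR) without WT 3. The sign of the difference turned when WT 3 was left out and in no other fit that left out a single library.

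The ratio of Bcl2 to Bcl2l1 CPM was 0.619, 0.420 and 5.64 in WT and 0.344, 0.447 and 0.683 in FOXO3 KO. B cell markers were highest in WT 3 as well. The 8 B cell markers summed to 1403, 719 and 5638 CPM in WT and to 295, 621 and 1267 CPM in FOXO3 KO. The 8 T cell markers summed to 537, 701 and 328 CPM in WT and to 557, 528 and 389 CPM in FOXO3 KO, WT 3 being the lowest. Il7r, which made up most of that sum, was lowest in WT 3 (213 CPM against 345 to 675 CPM), while the other 7 T cell markers were highest there. Without Il7r, which was taken out after its level was seen and which turned the direction, the sum was 27.1, 26.7 and 115 CPM in WT and 17.6, 25.03 and 44.4 CPM in FOXO3 KO. Among the other 5 libraries the B cell markers ran from 295 to 1403 CPM and Bcl2 from 22.9 to 38.9 CPM. Of these 5, FOXO3 KO 1 was lowest in both, while WT 1 was highest in the B cell markers and FOXO3 KO 3 in Bcl2. The part of B cells or T cells in the Bcl2 values was not tested.

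**Figure D2:**
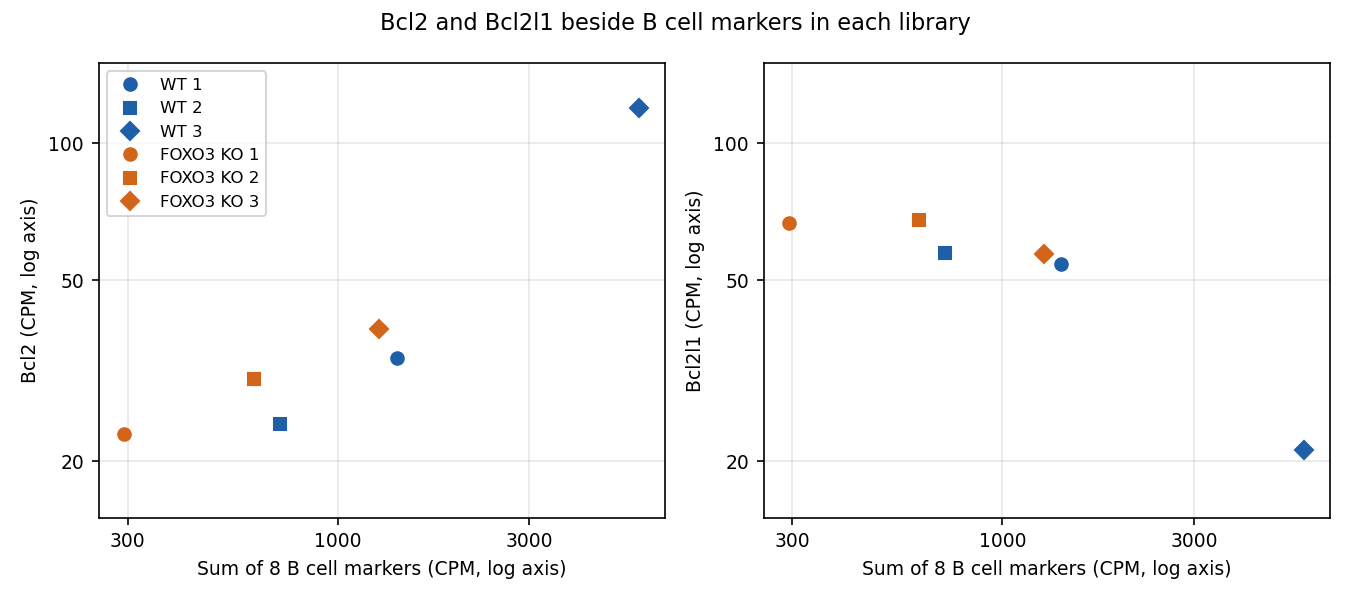
Bcl2 (left) and Bcl2l1 (right) in CPM against the summed CPM of 8 B cell markers, log axes, 1 point per library, WT in blue and FOXO3 KO in orange. WT 3 lies at 5638 CPM of B cell markers with Bcl2 at 120 CPM and Bcl2l1 at 21.2 CPM, apart from the other libraries on both panels.

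Of the effectors, Bax was at 86.3, 114 and 59.0 CPM in WT and at 106, 95.1 and 87.2 CPM in FOXO3 KO. The FOXO3 KO values all fell inside the WT range. Its log2 fold change was 0.15 (SE 0.24, 95% interval -0.43 to 0.74, adjusted p = 0.904, edgeR), 0.16 without FOXO3 KO 2 and -0.05 without WT 3. Bak1, which encodes the other pore former, was at 42.7, 51.1 and 23.0 CPM in WT and at 50.2, 49.7 and 50.2 CPM in FOXO3 KO. The FOXO3 KO libraries were nearly equal (50.03 ± 0.321 CPM, SD, n = 3) and the WT libraries spread (38.9 ± 14.4 CPM, SD, n = 3), with WT 2 the highest of all. Bak1 had a log2 fold change of 0.36 (SE 0.28, 95% interval -0.31 to 1.04, adjusted p = 0.854, edgeR), 0.37 without FOXO3 KO 2 and 0.10 without WT 3. Of the 31-base words of Bak1, 20.4% are shared with Ggnbp1, and 11.1% of those of Bax with other genes, mainly Gm45808, so part of their counts depends on how shared reads were divided.

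Bcl2l11, which encodes BIM, a BH3-only protein that binds every survival member, was at 116, 123 and 60.9 CPM in WT and at 106, 117 and 93.6 CPM in FOXO3 KO. WT 3, with Foxo3 at 73.1 CPM, was the lowest library for Bcl2l11. Among the others, FOXO3 KO 1 and 3, which are low in Foxo3, were below the 3 libraries at 116 to 123 CPM. Those 3 include the library labelled FOXO3 KO 2. This grouping was chosen after the values were seen and was not set against all genes. For Bcl2l11 the log2 fold change was 0.08 (SE 0.27, 95% interval -0.58 to 0.74, adjusted p = 0.954, edgeR) over all 6 libraries, -0.00 (SE 0.33) without FOXO3 KO 2, and -0.17 (SE 0.11, 95% interval -0.43 to 0.09, adjusted p = 0.753, edgeR) without WT 3. On the linear scale the last interval ran from 0.744-fold to 1.06-fold. With WT 3 and FOXO3 KO 2 both left out, a choice made after the data were seen, it was -0.26 (SE 0.11, unadjusted p = 0.0537, adjusted p = 0.575, edgeR) for 2 against 2 libraries.

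Bbc3, which encodes PUMA, is the only member with an unadjusted p under 0.05 in any of the 3 sets of libraries, namely without WT 3. Of all genes tested without WT 3, 1327 of 15788 (8.41%) passed that cut, so 1 of 10 members is near that share. It was at 15.5, 16.1 and 6.65 CPM in WT and at 11.8, 13.2 and 9.80 CPM in FOXO3 KO. WT 1 and WT 2 were above all FOXO3 KO libraries and WT 3 was below all of them. This order was not set against all genes. The log2 fold change was -0.13 (SE 0.35, 95% interval -0.98 to 0.71, adjusted p = 0.938, edgeR) over all 6 libraries and -0.24 (SE 0.42) without FOXO3 KO 2. Without WT 3 it was -0.43 (SE 0.15, 95% interval -0.79 to -0.08, unadjusted p = 0.0244), which did not pass the adjustment over all genes (adjusted p = 0.537, edgeR). Without WT 1 it was 0.03 and without WT 2 0.07, so the sign depended on which WT library was left out. With WT 3 and FOXO3 KO 2 both left out it was -0.54 (SE 0.15, unadjusted p = 0.0137, adjusted p = 0.400, edgeR). In that fit 1384 of 15597 genes and 1 of the 10 members had an unadjusted p under 0.05. No 31-base word of Bbc3 occurs in another gene.

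Pmaip1, which encodes NOXA, the BH3-only partner of MCL1 and A1, was at 27.6, 29.9 and 20.5 CPM in WT and at 29.0, 30.03 and 31.8 CPM in FOXO3 KO. The groups overlapped at WT 2, which lay between FOXO3 KO 1 and 2. Its log2 fold change was 0.22 (SE 0.16, 95% interval -0.16 to 0.60, adjusted p = 0.846, edgeR), 0.23 without FOXO3 KO 2 and 0.09 without WT 3.

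**Figure D3:**
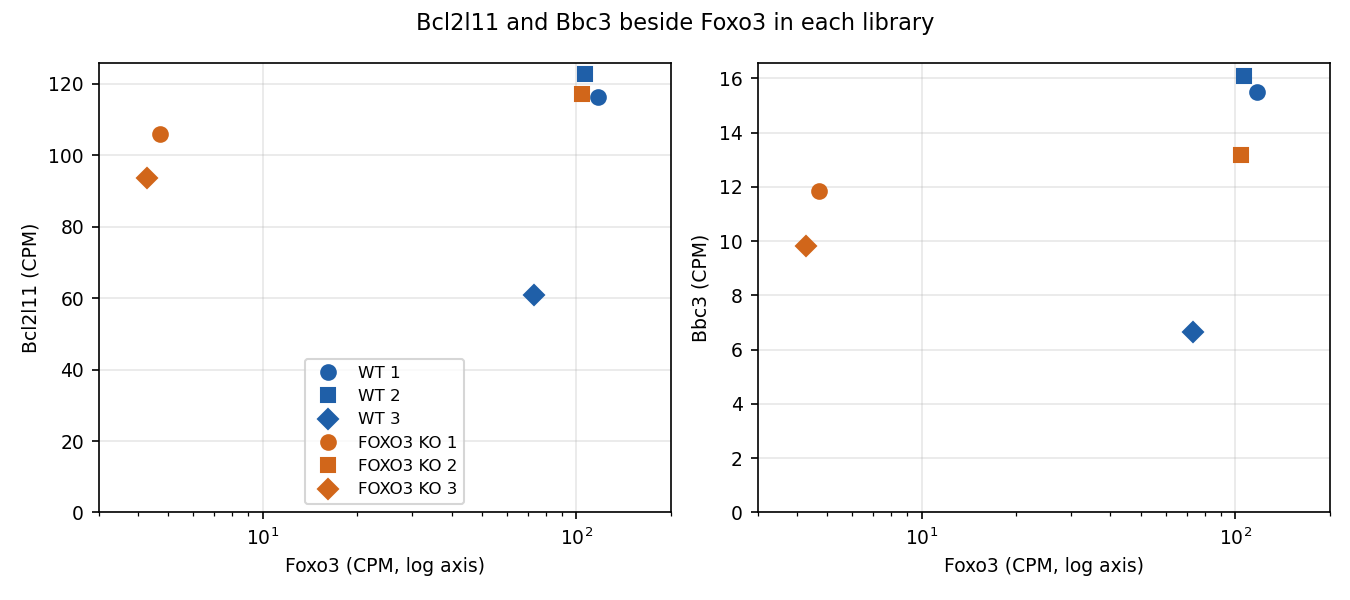
Bcl2l11 (left) and Bbc3 (right) in CPM against Foxo3 in CPM (log axis), 1 point per library, WT in blue and FOXO3 KO in orange. The library labelled FOXO3 KO 2 lies at 104 CPM of Foxo3 beside WT 1 and WT 2, and WT 3 is the lowest point for both genes at 73.1 CPM of Foxo3.

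**Figure D4:**
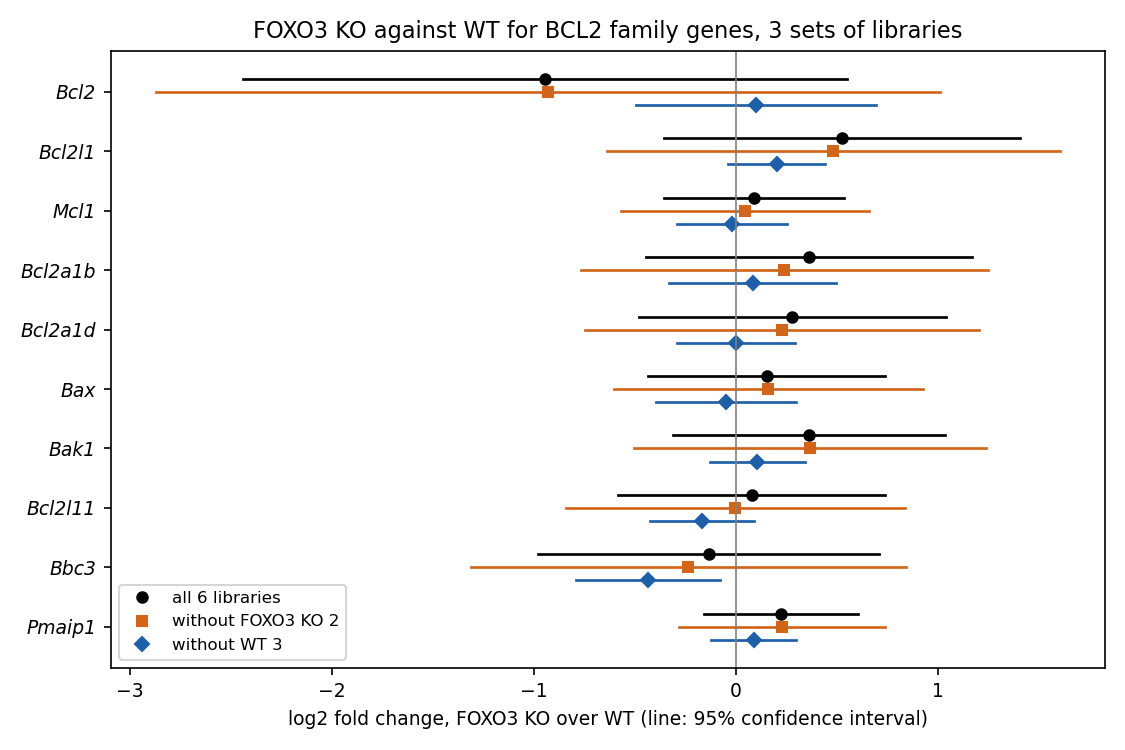
The log2 fold change (FOXO3 KO over WT, edgeR) of each BCL2 family gene with its 95% confidence interval, over all 6 libraries (black), without FOXO3 KO 2 (orange) and without WT 3 (blue). Intervals are narrower without WT 3, and only that of Bbc3 without WT 3 (-0.79 to -0.08) leaves out 0.

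Exact two-sided permutation p-values for the 10 genes ran from 0.2 (Bcl2l1 and Pmaip1) to 1.0 (Bbc3), where 3 against 3 libraries allow none under 0.1. The intervals were wide for several members. Over all 6 libraries the 95% interval of the fold change ran from 0.185 to 1.46 for Bcl2, from 0.782 to 2.65 for Bcl2l1, from 0.668 to 1.67 for Bcl2l11, and from 0.508 to 1.63 for Bbc3. A p above the threshold does not show that the groups were alike.

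Per length of exons, the survival genes made up most of the RNA of the 10 listed genes. As CPM per kb of the union of exons in WT, Mcl1 was at 322 ± 47.3 and Bcl2a1b at 204 ± 84.8 (SD, n = 3), followed by Bax at 54.9 ± 17.5, Bcl2a1d at 27.5 ± 11.3 and Bak1 at 16.2 ± 5.98. Bcl2l11 (12.5 ± 4.24), Bcl2l1 (9.67 ± 4.38) and Pmaip1 (9.50 ± 1.79) came next on this scale, and Bcl2 (6.46 ± 5.74) and Bbc3 (6.00 ± 2.49) were lowest. From Bak1 down to Bbc3 each gene differed from its neighbour in this order by less than the larger of their SDs in WT. These SDs do not measure the order within a library, since all genes were measured in the same libraries. Bak1, for example, was above Bcl2l11 in every library. The FOXO3 KO libraries gave 342 ± 25.8 CPM per kb for Mcl1, 262 ± 43.5 for Bcl2a1b and 3.35 ± 0.876 for Bcl2, which put Bcl2 below Bbc3 (5.46 ± 0.799). Bcl2 was below Bbc3 in WT 1 (3.68 against 7.29 CPM per kb) and WT 2 (2.63 against 7.58) as well. Only WT 3 (13.1 against 3.13) put the WT mean of Bcl2 above that of Bbc3. With the mean transcript length in place of the union of exons, which matters for genes with long alternative ends, the WT means were 514 for Mcl1, 134 for Bax, 47.0 for Bcl2l11, 30.1 for Bcl2l1, 14.2 for Bbc3 and 12.4 for Pmaip1, so Bcl2l11 and Bcl2l1 then ranked above Bcl2a1d.

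By the union of exons, the shares of the classes lay close together across libraries. Survival genes took between 84.3% and 86.4% of the summed CPM per kb of the 10 listed genes, the effectors between 9.73% and 11.5%, and the BH3-only genes between 3.75% and 4.46%. With the mean transcript length the shares were 75.8% to 79.9%, 14.0% to 16.8% and 6.16% to 7.83%. By the union of exons, Mcl1 alone took between 43.1% and 55.8%, the highest share being that of WT 3, in which the A1 copies were low. These shares have no test, and they describe RNA and not protein, whose turnover differs widely within the family. The shares also depend on which genes are on the list. Relatives such as Bnip3l, Bid and Bcl2l2 (means of 371, 44.9 and 38.3 CPM in WT) were not counted.

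**Figure D5:**
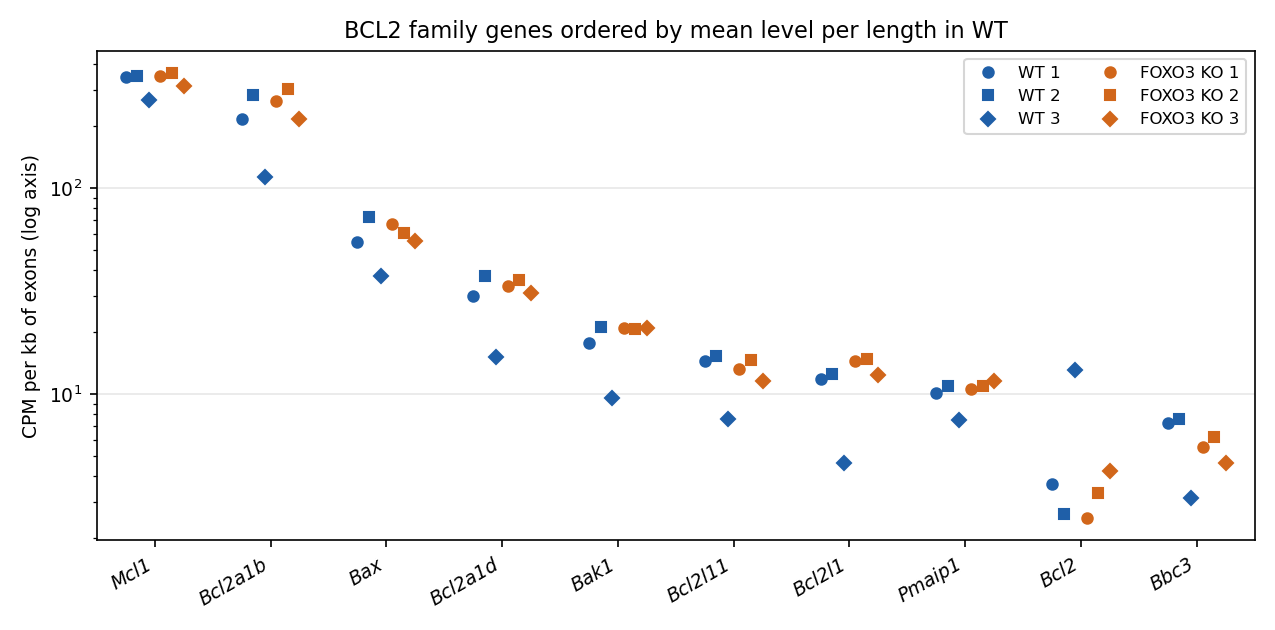
Level of each BCL2 family gene per kb of exons (TMM-scaled CPM per kb, log axis) in each library, ordered by the WT mean, with WT in blue and FOXO3 KO in orange. Mcl1 and Bcl2a1b lie highest in every library, and Bcl2 in WT 3 (blue diamond) stands above the other libraries.

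Other genes of the apoptosis pathway were read from the same fit. Of 67 genes on 5 lists, 61 were tested and 0 were called. At an unadjusted p under 0.05, 6 of the 61 (9.84%, against 5.68% of all genes tested) passed, of which 3 were higher in FOXO3 KO (Bok, Bcl2a1a and Cycs) and 3 lower (Trp53inp1, Sesn1 and Foxo4). In 10 of the 61 the FOXO3 KO libraries were all above or all below the WT libraries, against 12.4% of all genes tested. These included the raised Bok, Bcl2a1a and Cycs and the lowered Sesn1 and Foxo4. The median log2 fold change of the 61 genes was 0.08. By list it was 0.08 for the other BCL2 family members (11 of 16 tested), 0.08 for the apoptosome and caspases (13 of 13), 0.12 for the death receptor arm (12 of 12), 0.09 for p53 and its targets (12 of 12) and 0.02 for regulators and partners of the members (13 of 14). Without WT 3 these medians were -0.01, -0.01, 0.12, -0.03 and 0.04, and 0 of the genes were called without FOXO3 KO 2 or without WT 3. At an unadjusted p under 0.05, 5 of the 61 passed without FOXO3 KO 2 (4.30% of all genes tested) and 5 without WT 3 (8.41%). The BCL2 relatives Bcl2l10, Bcl2l15, Bik and Hrk were too low to be tested, and Bcl2l10 had no count in any library.

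Bok, a pore-forming relative of Bax and Bak1, had the smallest p among these genes at a low level. It was at 0.305, 0.388 and 0.0839 CPM in WT and at 0.921, 2.01 and 1.08 CPM in FOXO3 KO, without overlap of the groups. Bok had a log2 fold change of 2.37 (SE 0.60, adjusted p = 0.714, edgeR), and 1.95 both without FOXO3 KO 2 and without WT 3. The likelihood ratio test of edgeR (adjusted p = 0.0357) and DESeq2 (adjusted p = 0.0416) called it over all 6 libraries, and DESeq2 no longer did without FOXO3 KO 2 (adjusted p = 0.558). Bok was highest in FOXO3 KO 2, where markers of mesothelial cells and fibroblasts summed to 489 CPM against 41.8 to 172 CPM in the other libraries, and their part in the Bok values was not tested. Bmf, a BH3-only gene, was at 22.9 ± 2.26 CPM in WT and 19.0 ± 5.21 CPM in FOXO3 KO (SD, n = 3 each). It was at 14.1, 24.5 and 18.3 CPM in FOXO3 KO 1 to 3. Its log2 fold change was -0.27 over all 6 libraries and -0.24 without WT 3. Without FOXO3 KO 2 it was -0.50 (unadjusted p = 0.0402, adjusted p = 0.994, edgeR).

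Cycs, which encodes the cytochrome c that BAX and BAK release, was at 34.3, 41.5 and 30.4 CPM in WT and at 47.3, 45.5 and 44.7 CPM in FOXO3 KO (log2 fold change 0.37, SE 0.13, adjusted p = 0.821, edgeR), again without overlap. Of the p53 targets, Sesn1, a stress-induced regulator of mTORC1, was at 129 ± 12.3 CPM in WT and 103 ± 12.6 CPM in FOXO3 KO (SD, n = 3 each), and Trp53inp1 was at 117 ± 44.6 and 65.2 ± 20.02 CPM. Their log2 fold changes were -0.34 (adjusted p = 0.839, edgeR) and -0.85 (adjusted p = 0.839, edgeR). Without FOXO3 KO 2 that of Sesn1 was -0.44 (unadjusted p = 0.0237, adjusted p = 0.994, edgeR). For Trp53inp1 it was -1.10 (unadjusted p = 0.0245, adjusted p = 0.994, edgeR). Without WT 3, Sesn1 was at -0.25. Trp53inp1 was highest in WT 3 (168 CPM against 85.4 and 98.5 CPM in the other WT libraries), and without WT 3 its log2 fold change was -0.49 (unadjusted p = 0.0872, adjusted p = 0.662, edgeR). The FOXO3 relative Foxo4 was at 34.5 ± 2.20 CPM in WT and 26.2 ± 3.57 CPM in FOXO3 KO (log2 fold change -0.40, adjusted p = 0.765, edgeR). Without FOXO3 KO 2 this was -0.51 (unadjusted p = 0.00946, adjusted p = 0.867, edgeR), and without WT 3 -0.44. Foxo1, like Bcl2, was highest in WT 3, at 39.3, 29.7 and 96.0 CPM in WT and at 25.9, 32.1 and 39.7 CPM in FOXO3 KO. Foxo1 had a log2 fold change of -0.76 over all 6 libraries and -0.07 without WT 3.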

How the data were processed

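RNA-seq of 3 WT and 3 FOXO3 KO libraries was analysed from the deposited table, in which the authors gave estimated counts per gene symbol with no normalization. Per the submitters' processing notes the tools were STAR 2.6.1d, kallisto 0.46.0 and DESeq2 with mm10, and which annotation was counted is not given in the sources used here. Values were rounded before fitting (81.4% were whole to within 0.01). Reads shared by near-identical genes were divided by the authors' counting, which limits the A1 copies.

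Groups followed the labels. The comparison used edgeR 4.0.16 under R 4.3.3 (filterByExpr, TMM, quasi-likelihood test, Benjamini-Hochberg over all genes tested), a common dispersion of 0.103 being fitted, and calls needed an FDR under 0.05 and a fold above 1.5. Standard errors were derived from the log2 fold change and its F statistic. The quasi-likelihood p-values set the difference between the groups against the spread between these libraries, estimated with information from all genes tested. Coordinates and exon lengths came from GENCODE M21 and promoters from RefSeq, both of GRCm38, the assembly that mm10 names. No promoter window was used for Pmaip1. CPM used TMM-scaled library sizes.

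Alternatives were the likelihood ratio test, DESeq2 1.42.0, limma-voom (limma 3.58.1), other scalings and filters, a replicate block, each library left out, and a covariate for the Xist split. Genes named in the text were Foxo3, the 10 family members, the A1 copies, and genes among the 3 smallest p of each pathway list. Single cell type markers were named where they lead a summed level, go against it or, like Cxcr2, go with its difference. The members and lists were chosen with earlier results of these data known. Python 3.11.15 with pandas 2.3.3 made the tables.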

Additional observations from a re-analysis of the deposited data

How the results depend on the processing

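No family member was called under any of the 22 alternatives, and 196 of 217 log2 fold changes kept their direction while 21 did not, the summed A1 copies counting once. Without WT 3 the value turned to 0.098 for Bcl2, -0.019 for Mcl1, -0.00014 for Bcl2a1d, -0.049 for Bax and -0.17 for Bcl2l11. With WT 3 and FOXO3 KO 2 both left out, added after seeing the data, it was 0.098 for Bcl2, -0.070 for Mcl1, -0.046 for Bcl2a1b, -0.058 for Bcl2a1d, -0.050 for Bax and -0.26 for Bcl2l11. Bcl2l11 was at -0.0033 without FOXO3 KO 2 and at -0.00082 with DESeq2 without that library. With the A1 copies summed as well, the members other than A1 gave 0.098 for Bcl2, -0.019 for Mcl1, -0.049 for Bax and -0.17 for Bcl2l11 without WT 3, and -0.0032 for Bcl2l11 without FOXO3 KO 2, fits added after seeing the data. Bbc3 was at 0.033 without WT 1, 0.070 without WT 2, and 0.0084 with the Xist covariate and without FOXO3 KO 2. Over the fits that leave out each library in turn the range was -1.31 to 0.098 for Bcl2, -0.019 to 0.16 for Mcl1, -0.00014 to 0.57 for Bcl2a1d, -0.049 to 0.41 for Bax, -0.17 to 0.26 for Bcl2l11 and -0.43 to 0.070 for Bbc3. The cause was not tested.

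Over all genes the quasi-likelihood test called 0, also without each library in turn (0 to 0), and so it did among the family members and the other apoptosis genes. The likelihood ratio test called 109 of 15608 genes, DESeq2 160 of 31439, and DESeq2 without FOXO3 KO 2 108 of 30848. The DESeq2 totals hold every gene with a count, also those without an adjusted p. The Xist covariate without FOXO3 KO 2 called 17 of 16217. At an unadjusted p under 0.05, 2356 of these genes and 2 of the 10 members passed in that fit. The members were Bcl2 at -0.87 (unadjusted p = 0.0311, adjusted p = 0.295, edgeR) and Bcl2l1 at 0.77 (unadjusted p = 0.0288, adjusted p = 0.290, edgeR). Leaving out WT 3 and FOXO3 KO 2 together called 4 of 15597, among them Foxo3. Of the other apoptosis genes the likelihood ratio test and DESeq2 called 1 each, Bok. Deviations of libraries from their group means had correlations of 0.34, -0.06 and 0.57 for the same replicate number. For different numbers the correlations ran from -0.58 to 0.61. These values cannot decide whether the numbers pair the libraries, since the WT mean includes WT 3, which stands apart. With the replicate number as a block 0 genes were called, 0 of them family members and 0 other apoptosis genes, and Bcl2 was at -0.62 and Bcl2l1 at 0.65.

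Among the 3 libraries of a group, 1 FOXO3 KO library carries Foxo3 and 1 WT library stands apart. Exact tests allow no p under 0.1.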
